A study of Homo sapiens with 8 samples.

Results

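The class I antigen presentation genes were read out in A375, a human melanoma cell line, cultured with and without serum. The 9 genes were taken by name from a list: the heavy chain genes *HLA-B*, *HLA-C*, *HLA-E* and *HLA-F*, the light chain gene *B2M*, the peptide transporter genes *TAP1* and *TAP2*, the tapasin gene *TAPBP* and the transcriptional regulator gene *NLRC5*. They are 9 of the 58051 genes counted, and all 9 were among the 17671 genes with enough reads to be tested. Other class I heavy chain genes were not analysed here. RNA was sequenced from 4 lines, WT1 to WT4, each grown from a single A375 cell and thus a clone, and all labelled WT, which in the study stands for wild type for *NECTIN1*, kept for 12 h in DMEM with 10% FBS (serum) or without FBS (serum-free). There were 8 libraries, 1 for each line and condition, and all of them came from total RNA depleted of ribosomal RNA. In the study, the response to serum removal served to list candidate growth factors and hormones of serum for further tests.

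MHC class I molecules show peptides from inside the cell to CD8+ T cells. A heavy chain folds in the endoplasmic reticulum with the light chain beta-2-microglobulin. The transporter formed by TAP1 and TAP2 brings in peptides made by the proteasome, and tapasin holds the empty class I molecule at the transporter until a peptide binds. NLRC5 is the transactivator of class I genes, and interferons raise the pathway in most cells. Melanoma cells can lose class I from their surface, which hides them from T cells.

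The genes lie close together in the genome, apart from a pair. On GRCh38, *HLA-F* (ENSG00000204642, chr6:29723434-29738532), *HLA-E* (ENSG00000204592, chr6:30489509-30494194), *HLA-C* (ENSG00000204525, chr6:31268749-31272092), *HLA-B* (ENSG00000234745, chr6:31353875-31357179), *TAP2* (ENSG00000204267, chr6:32821831-32838739), *TAP1* (ENSG00000168394, chr6:32845209-32853704) and *TAPBP* (ENSG00000231925, chr6:33299694-33314078) are in the MHC on chromosome 6. *B2M* (ENSG00000166710, chr15:44711517-44718145) and *NLRC5* (ENSG00000140853, chr16:56989557-57083520) are elsewhere. *TAP1* lies head to head with *PSMB9*, which encodes an immunoproteasome subunit, with 488 bases between their RefSeq start sites.

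The 250 bases before the start site of 5 genes are shown, to set *TAP2*, which fell, beside 4 genes that were higher in every line. The sequences are from RefSeq, build GRCh38.p14, on the minus strand, 5′ to 3′: *HLA-B* at chr6:31357180-31357429, *HLA-C* at chr6:31272093-31272342, *TAP1* at chr6:32853705-32853954, *TAP2* at chr6:32838740-32838989 and *TAPBP* at chr6:33314079-33314328. Capitals mark every match, on either strand, to 4 motifs: the interferon regulatory factor (IRF) half-site AANNGAAA, the NF-kB consensus, the CRE half-site TGACG and the CCAAT box CCAAT.
HLA-B: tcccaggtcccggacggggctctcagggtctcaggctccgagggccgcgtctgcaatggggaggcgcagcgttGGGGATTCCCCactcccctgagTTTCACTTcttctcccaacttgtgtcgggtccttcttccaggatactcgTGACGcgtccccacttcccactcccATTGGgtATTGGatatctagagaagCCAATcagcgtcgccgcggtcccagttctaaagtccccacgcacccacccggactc
HLA-C: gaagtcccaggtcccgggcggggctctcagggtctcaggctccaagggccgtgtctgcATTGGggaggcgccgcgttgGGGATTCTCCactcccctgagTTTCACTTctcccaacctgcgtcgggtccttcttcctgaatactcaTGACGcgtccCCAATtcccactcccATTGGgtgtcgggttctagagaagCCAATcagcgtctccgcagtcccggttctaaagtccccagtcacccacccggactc
TAP1: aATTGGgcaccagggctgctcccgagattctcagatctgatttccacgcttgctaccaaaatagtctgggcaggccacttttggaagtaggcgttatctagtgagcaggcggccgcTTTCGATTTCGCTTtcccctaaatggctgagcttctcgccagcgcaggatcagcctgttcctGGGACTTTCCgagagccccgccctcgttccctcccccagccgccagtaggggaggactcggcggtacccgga
TAP2: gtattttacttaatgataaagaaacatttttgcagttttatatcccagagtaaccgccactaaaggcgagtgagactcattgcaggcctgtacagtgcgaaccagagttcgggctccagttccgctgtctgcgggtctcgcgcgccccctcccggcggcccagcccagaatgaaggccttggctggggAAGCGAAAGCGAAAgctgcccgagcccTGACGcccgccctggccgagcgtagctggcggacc
TAPBP: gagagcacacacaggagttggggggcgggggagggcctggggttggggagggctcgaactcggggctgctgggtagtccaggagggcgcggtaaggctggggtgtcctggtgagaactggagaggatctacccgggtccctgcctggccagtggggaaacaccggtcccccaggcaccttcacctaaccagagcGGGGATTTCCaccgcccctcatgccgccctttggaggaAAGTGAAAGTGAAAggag

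An IRF half-site was found in 7 of the 7 class I genes with an upstream window, against 20.3% of 35116 windows of this length. In *HLA-B* it lay 155 to 148 bases before the start and in *HLA-C* 151 to 144 bases before it, once in each, just after an NF-kB match. *TAP1*, *TAP2*, *TAPBP* and *B2M* held 2 half-sites that shared 2 bases. In *TAP2* they spanned 62 to 49 bases before the start and in *TAPBP* 18 to 5. The NF-kB consensus was matched in 5 of the 7 windows, those of *HLA-B*, *HLA-C*, *B2M*, *TAP1* and *TAPBP*, against 9.96% of all windows. In *HLA-B* the NF-kB matches lay on both strands and overlapped each other, shifted by 1 base. The CRE half-site was matched in 4 (*HLA-B*, *HLA-C*, *B2M* and *TAP2*; 21.2% of all windows) and the CCAAT box in 5 (*HLA-B*, *HLA-C*, *HLA-F*, *B2M* and *TAP1*; 32.0%). *TAP2* had no NF-kB or CCAAT match in its window. Genes higher in every line lacked such matches too, *HLA-F* that to NF-kB and *TAPBP* that to the CCAAT box. *B2M*, which was not called, held a match to every motif. A link between these matches and the serum response was not tested. These are letter matches only. Binding was not measured.

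Reads on genes ran from 29759279 to 73341551 per library. Reads with more than 1 alignment, which were not counted, made up 22.7% of the WT1 serum library and 16.8% of the WT2 serum library, against 5.73% to 10.1% of the others. Shares are of the reads on genes, ambiguous reads and reads with more than 1 alignment, since the other summary entries were at 0. Their part in the results was not tested. Serum calls of named genes that ended in WT3 and WT4 alone are given with those results, and line differences and levels were not computed for these lines alone. Fold changes across all genes moved with GC content (Spearman's rho 0.358 across 17425 genes), and the median GC content of the 9 genes was 56.8%, against 47.9% over tested genes, so values with a GC correction are given too. The melanoma markers *MITF*, *S100B* and *AXL* had at least 512 reads in every library. The other 5 of the 8 listed were low or absent, with 8 to 62 reads for *PMEL*, 28 to 89 for *MLANA*, 4 to 124 for *DCT*, 0 to 4 for *TYR* and 0 for *SOX10*. The exons of *SOX10* overlap those of *POLR2F* in 5.39% of their bases, and whether its reads were lost in counting was not tested. Of the 6 markers with enough reads to be tested, *MITF* was lower without serum (-0.28 on the log2 scale, edgeR's adjusted p = 0.0496), where 14% of all genes were. This call ended with the GC correction (-0.16, edgeR's adjusted p = 0.192) and with voom (limma's adjusted p = 0.0592). With the block 3 were lower and 1 higher, against 22.4% and 23.2% of all genes, and *AXL* was among the lower ones (-0.35, edgeR's adjusted p = 0.000588). With the block and the GC correction 2 were lower and 0 higher, against 24.5% and 21.7% of all genes. Their part in the results was not tested. Markers of immune cells (*PTPRC*, *CD3E*, *CD68*) had at most 5 reads, although 85.6% of the exon bases of *CD68* overlap other genes. *LYZ*, a myeloid marker, had 107 to 425 reads, and of the fibroblast markers *COL1A1* had 18 to 157 and *DCN* 8 to 302. *DCN* was higher without serum with the block (0.90 on the log2 scale, edgeR's adjusted p = 0.0125) and not without it (edgeR's adjusted p = 0.355), and its part in the results was not tested. The summed level of the 8 matched markers of other cell types was 4.72 to 7.90 CPM with serum and 6.84 to 10.5 CPM without.

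Levels between genes were compared as RPKM, reads scaled to gene length and library size. *B2M* was the highest, at 110.1 ± 1.40 RPKM with serum and 105 ± 3.96 without (SD, n = 4). It ranked at 335 and 283 among 17425 genes. *HLA-E*, which presents leader peptides of other class I chains to natural killer cells, was next at 39.6 ± 5.31 and 47.8 ± 5.86 RPKM. The classical heavy chains followed, *HLA-B* at 18.9 ± 7.46 and 23.4 ± 7.30 RPKM and *HLA-C* at 14.2 ± 5.24 and 17.9 ± 4.71 RPKM. The length used for *HLA-B* was 4623 bases, and 45.3% of them overlap other annotated genes. This may set its RPKM too low, which was not tested. In reads not scaled to length, *HLA-E* was below *HLA-B* in WT4 (0.950 *HLA-E* reads per *HLA-B* read with serum and 0.895 without) and above it in the other lines. *TAPBP* was at 11.0 ± 2.03 and 15.4 ± 1.63 RPKM and *TAP1* at 5.96 ± 1.26 and 7.40 ± 0.71 RPKM. These 6 genes lay above the median expressed gene (2.75 RPKM with serum and 2.93 without).

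Below that median were *TAP2* at 2.07 ± 0.33 and 1.52 ± 0.12 RPKM, *NLRC5* at 0.97 ± 0.18 and 1.41 ± 0.20 RPKM, and *HLA-F*, a heavy chain kept mostly inside resting cells, at 0.66 ± 0.13 and 0.74 ± 0.18 RPKM. The order was the same in both conditions with this length. The ranges of *HLA-B* and *HLA-C* overlapped in both, as did those of *HLA-C* and *TAPBP*, and without serum those of *TAP2* and *NLRC5* as well. The ranges of the other neighbours did not overlap. With the length of the longest transcript in place of all exons, *TAP2* was at 3.45 RPKM with serum, and *HLA-F* and *NLRC5* changed places there (1.84 and 1.76 RPKM). Without serum, that length put *TAPBP* (24.8 RPKM) above *HLA-C* (23.8 RPKM) and *NLRC5* (2.57 RPKM) above *TAP2* (2.55 RPKM).

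**Figure D1:**
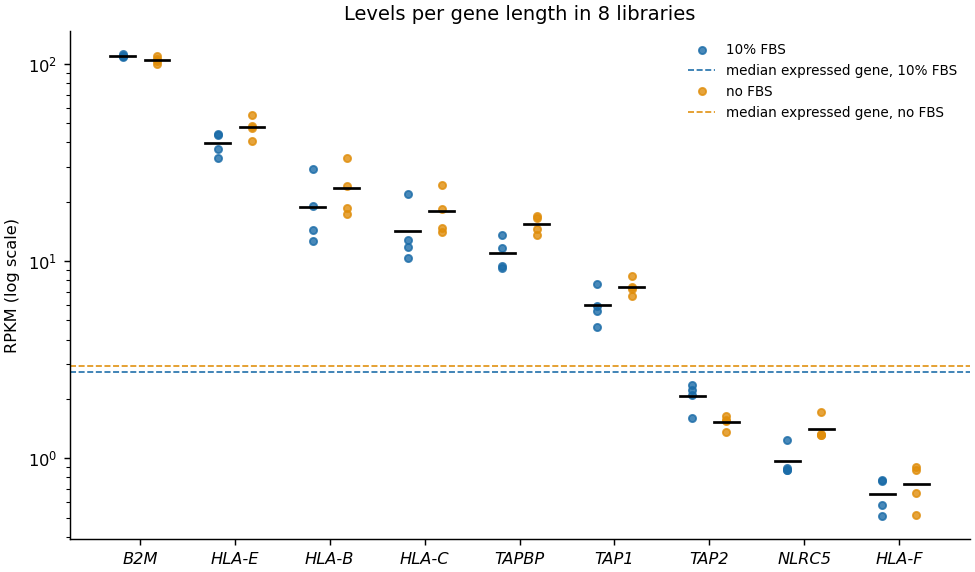
Level of each gene in RPKM (log axis), with serum in blue and without serum in orange; points are the 4 lines, black bars are means and dashed lines the median expressed gene. *B2M* at 110.1 RPKM with serum stands highest, and *TAP2*, *NLRC5* and *HLA-F* lie below the median expressed gene of 2.75 RPKM.

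Without serum, *TAPBP* and *NLRC5* rose, *TAP2* fell, and *HLA-B*, *HLA-C*, *HLA-E* and *TAP1* were higher in all 4 lines, 1.21- to 1.26-fold on average. Comparing conditions as separate groups, edgeR's quasi-likelihood test called 2 of the 9 genes higher (11.1% of all tested genes) and 1 lower (14% of all). With upper-quartile scaling 14.2% of all genes were called higher and 10.4% lower, which turns the balance of calls. Each line gave 1 library to either condition, and same-line libraries deviated together, so the line was also fitted as a replicate block. With the block, 6 of the 9 were called higher (23.2% of all) and 1 lower (22.4% of all), 45.7% of all genes being called in either direction. The GC correction without the block called the same number of genes as the test without it, 2 higher and 1 lower (27% of all in either direction). The median log2 fold change of the 9 was 0.31, and 0.33 with the block, against 0.033 and 0.035 over all tested genes. With the block and the GC correction it was 0.15, against 0.014, and 5 were called higher (21.7% of all) and 1 lower (24.5% of all). In the lines taken singly, 7 genes were higher in all 4 (28.8% of all genes) and 2 lower in all 4 (26.6% of all). Because the RNA is from bulk cultures, more cells with a transcript and more transcript per cell cannot be told apart.

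**Figure D2:**
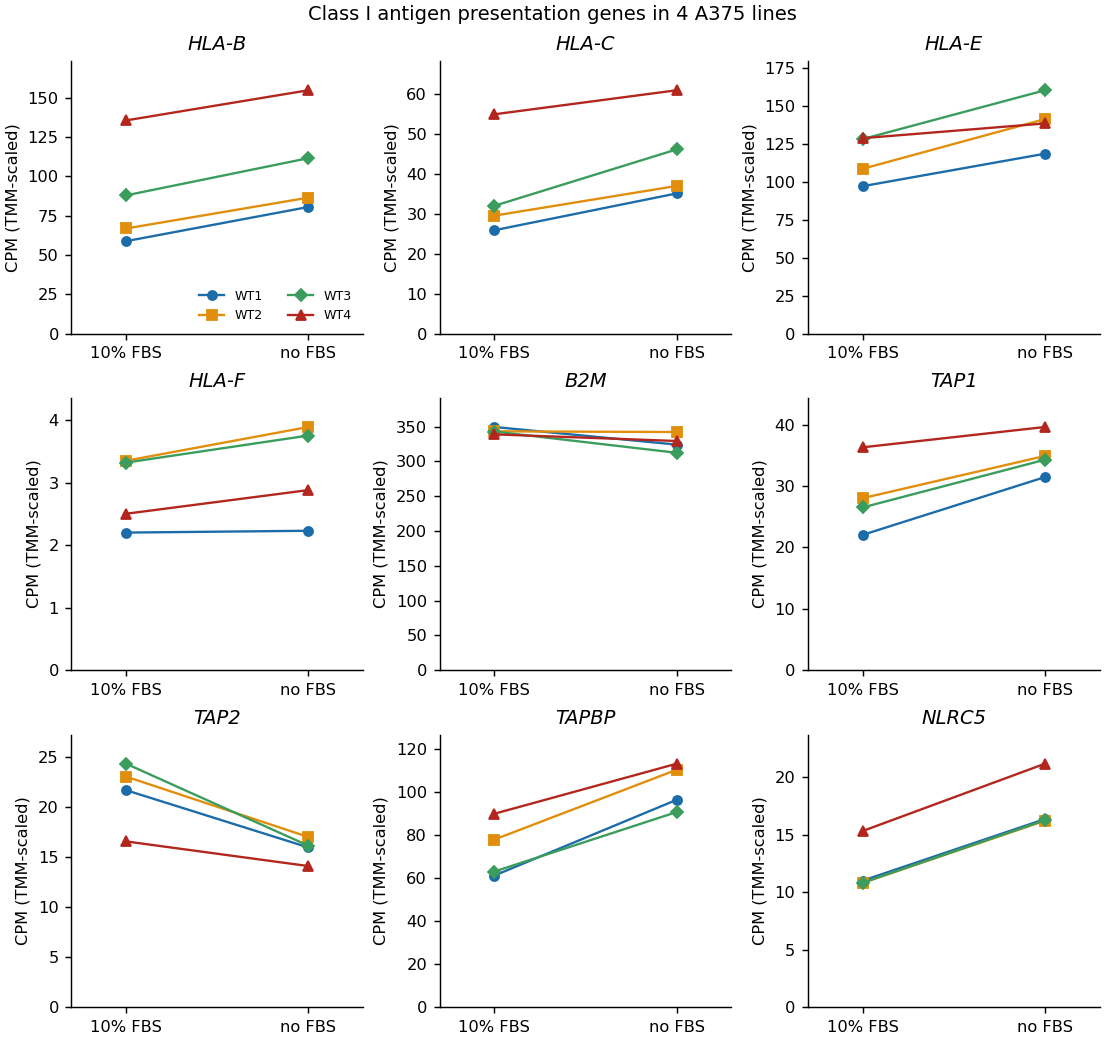
Normalised read count (CPM, TMM-scaled) of each gene in each line with 10% FBS and without FBS; each coloured line joins the 2 libraries of a clone, and axes start at 0. *TAPBP* and *NLRC5* rise and *TAP2* falls in each line, *B2M* stays between 312 and 349.5 CPM, and WT4 lies highest for *HLA-B*, *HLA-C*, *TAP1*, *TAPBP* and *NLRC5*.

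Of the regulator, *NLRC5* was at 11.0, 10.8, 10.8 and 15.3 CPM (reads scaled to library size by TMM) with serum in WT1, WT2, WT3 and WT4, and at 16.4, 16.2, 16.3 and 21.2 CPM without. The lowest serum-free library lay above the highest serum library, one of 2 such genes among the 9, where 12.6% of all tested genes were higher and 15% lower without overlap. *NLRC5* rose by 0.55 ± 0.15 on the log2 scale (SE, edgeR's adjusted p = 0.0221), 1.46-fold. With the block the rise was 0.55 ± 0.081 (edgeR's adjusted p = 6.74e-05), and with the GC correction as well 0.38 (edgeR's adjusted p = 0.000594). WT1, WT2 and WT3 gave nearly the same value in either condition, and WT4 was higher than them in both.

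Of the loading complex, *TAPBP* was at 61.1, 77.8, 63.0 and 89.8 CPM with serum in WT1 to WT4 and at 96.3, 110.3, 90.6 and 113.1 CPM without. Here too the groups did not overlap. The rise was 0.49 ± 0.13 on the log2 scale (edgeR's adjusted p = 0.0214), 1.41-fold, and 0.50 ± 0.061 with the block (edgeR's adjusted p = 1.38e-05). With the GC correction and the block it was 0.34 (edgeR's adjusted p = 1.59e-05).

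The transporter subunits went in opposite directions. *TAP2* was at 21.7, 23.0, 24.3 and 16.6 CPM with serum in WT1 to WT4 and at 16.0, 17.0, 16.1 and 14.1 CPM without. It was lower in every line, and the groups overlapped only through the serum library of WT4. *TAP2* fell by 0.44 on the log2 scale (SE 0.12, edgeR's adjusted p = 0.0284), and fell by 0.43 with the block (SE 0.081, edgeR's adjusted p = 0.00057). With the GC correction and the block it fell by 0.44 (edgeR's adjusted p = 0.000128), the same size as without. *TAP1*, its partner, was at 22.0, 28.0, 26.5 and 36.3 CPM with serum and at 31.5, 34.9, 34.3 and 39.6 CPM without. *TAP1* was higher without serum in each line, with groups that overlapped, by 0.31 ± 0.14 on the log2 scale (edgeR's adjusted p = 0.129). With the block it rose by 0.33 ± 0.073 (edgeR's adjusted p = 0.00188), and by 0.17 with the GC correction as well (edgeR's adjusted p = 0.028).

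Taken within a library, *TAP1* reads per *TAP2* read were 1.02, 1.22, 1.09 and 2.19 with serum in WT1 to WT4 and 1.97, 2.05, 2.13 and 2.81 without. The ratio was higher without serum in every line. It was chosen after the values of both genes were seen and carries no test. Some exon bases of both genes are shared with other annotated genes, 14.2% for *TAP1* (with *PSMB8-AS1*, antisense, 14 to 54 reads) and 19.5% for *TAP2* (with ENSG00000250264, 0 reads). Reads on such bases may have been set aside as ambiguous, and the strand setting of the counts is not given in the sources used here.

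The heavy chains *HLA-B*, *HLA-C* and *HLA-E* were called with the block and not in the test without it. *HLA-B* was at 58.7, 66.8, 87.9 and 135.5 CPM with serum in WT1 to WT4 and at 80.5, 86.4, 111.5 and 154.7 CPM without. The lines differed by more than the conditions did, so the groups overlapped. The difference was 0.31 ± 0.31 on the log2 scale (edgeR's adjusted p = 0.499) and, with the block, a rise of 0.34 ± 0.058 (edgeR's adjusted p = 0.000254), 0.25 with the GC correction (edgeR's adjusted p = 0.000305). *HLA-C* was at 25.9, 29.5, 32.0 and 54.9 CPM with serum and at 35.1, 37.0, 46.1 and 60.9 CPM without. It was higher in each line, by 0.34 ± 0.27 (edgeR's adjusted p = 0.400), and rose by 0.36 ± 0.070 with the block (edgeR's adjusted p = 0.000779). With the block and the GC correction the call ended (0.11, edgeR's adjusted p = 0.116). *HLA-C* has the highest GC content of the 9 genes, 62.7%.

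*HLA-E* was at 97.1, 108.6, 128.2 and 128.8 CPM with serum in WT1 to WT4 and at 118.5, 141.3, 160.4 and 138.5 CPM without. It differed by 0.27 ± 0.12 on the log2 scale (edgeR's adjusted p = 0.111), rose by 0.27 ± 0.058 with the block (edgeR's adjusted p = 0.0014), and by 0.15 with the GC correction as well (edgeR's adjusted p = 0.0115). *HLA-F* was at 2.20, 3.35, 3.32 and 2.50 CPM with serum and at 2.23, 3.89, 3.75 and 2.88 CPM without, from 71 to 297 reads per library. Its difference of 0.16 passed no fit (edgeR's adjusted p = 0.646, and 0.410 with the block). Heavy chain genes resemble each other and have related pseudogenes, so a part of their reads may have been lost to multiple alignment, and 45.3% of the exon bases of *HLA-B* and 28.0% of those of *HLA-F* overlap another annotated gene.

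The light chain did not pass the test. *B2M* was at 349.5, 343.3, 343.0 and 338.9 CPM with serum in WT1 to WT4 and at 324, 342, 312 and 329 CPM without. The difference with the block was -0.07 on the log2 scale, with a 95% interval of -0.18 to 0.04 (edgeR's adjusted p = 0.274), so a rise of the size seen for *TAPBP* or *NLRC5* lies outside the interval. With the GC correction the sign turned (0.09 with the block, edgeR's adjusted p = 0.113). *B2M* has the lowest GC content of the 9 genes, 38.9%. The reads of the 4 heavy chain genes together, per *B2M* read, were 0.526, 0.607, 0.733 and 0.949 with serum and 0.729, 0.785, 1.03 and 1.08 without, higher in each line. This ratio also was chosen after the values were seen.

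**Figure D3:**
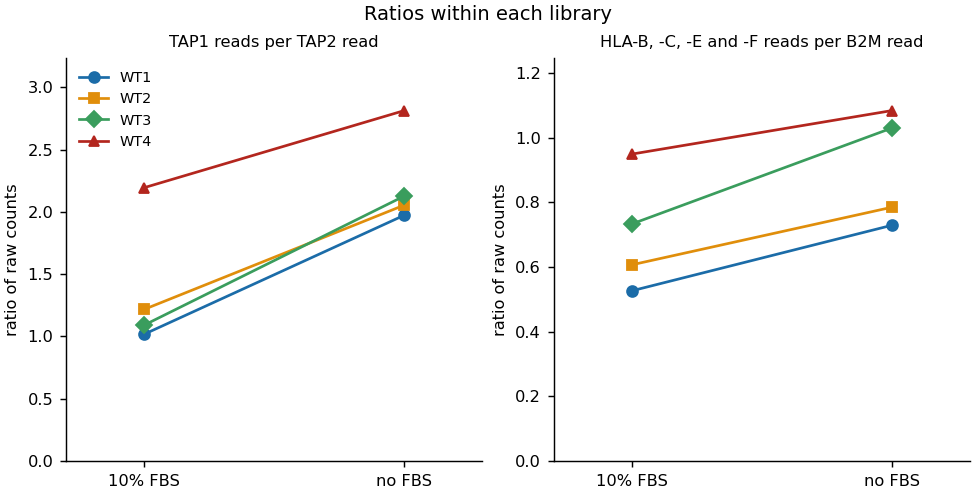
*TAP1* reads per *TAP2* read (left) and reads of *HLA-B*, *HLA-C*, *HLA-E* and *HLA-F* together per *B2M* read (right) in each line with and without FBS, as ratios of raw counts on axes from 0. Both ratios are higher without FBS in each line, and WT4 is highest in both conditions, with 2.19 and 2.81 *TAP1* reads per *TAP2* read.

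How firmly these changes stand depends on the fit. Without the block, each of the 3 calls was lost when some single library was left out: *TAP2* in 6 of 8 fits (edgeR's adjusted p up to 0.0839), *TAPBP* in 4 (up to 0.0676) and *NLRC5* in 4 (up to 0.0666). The call of *TAP2* also ended with upper-quartile scaling (-0.37, edgeR's adjusted p = 0.0502). Leaving out the serum library of WT4 gave calls for *HLA-C* (0.62 on the log2 scale, edgeR's adjusted p = 0.0484) and *TAP1* (0.46, edgeR's adjusted p = 0.0113). With the block, all 7 calls held when any 1 line was left out. On simulated data the blocked fit made more false calls than its threshold allows, and leaving out lines does not address that. In WT3 and WT4 alone, with the block, 3 of the 9 genes passed (24.2% of all did), *TAP2*, *TAPBP* and *NLRC5* (-0.42, 0.43 and 0.53 on the log2 scale), and *HLA-B* (0.27), *HLA-C* (0.34), *HLA-E* (0.21) and *TAP1* (0.25) did not.

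**Figure D4:**
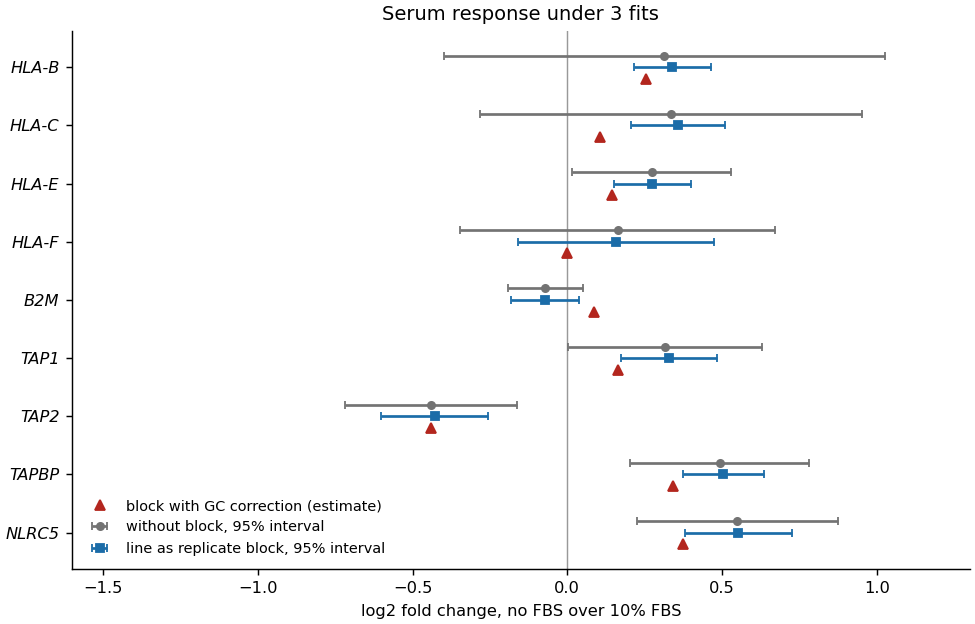
Log2 fold change, serum-free over serum, of each gene without the block (grey circles), with the line as block (blue squares; bars are 95% intervals) and with block and GC correction (red triangles, estimate only). The block narrows the interval of *HLA-B* from -0.40 to 1.03 down to 0.21 to 0.46, *TAP2* lies below 0 in all 3 fits, and *B2M* changes side with the GC correction.

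Libraries of different lines differed in class I expression, and those of WT4 stood out. No line had a repeat culture within a condition, so a difference between lines was not separated from that of culture or preparation. With condition in the model, edgeR's F-test of the 3 line terms called 6 of the 9 genes (22.9% of all tested genes). Averaged over both conditions, *HLA-B* was at 69.6, 76.6, 99.7 and 145 CPM in WT1, WT2, WT3 and WT4, a 2.09-fold span (edgeR's adjusted p = 7.95e-07). *HLA-C* was at 30.5, 33.2, 39.0 and 57.9 CPM, a 1.90-fold span (edgeR's adjusted p = 2.13e-05). For these chains the difference between lines was larger than that between conditions.

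The span was smaller for the others called: 1.42-fold for *TAP1* (edgeR's adjusted p = 0.0115), 1.35-fold for *NLRC5* (edgeR's adjusted p = 0.0189), 1.34-fold for *HLA-E* (edgeR's adjusted p = 0.00925) and 1.32-fold for *TAPBP* (edgeR's adjusted p = 0.00469). *HLA-E* was highest in WT3, and the other 5 genes called in WT4. *TAP2* was lowest in WT4, at 15.3 CPM against 18.8 to 20.2 in the other lines, and did not pass (edgeR's adjusted p = 0.0764). *HLA-F* (edgeR's adjusted p = 0.0576) and *B2M* (1.05-fold, edgeR's adjusted p = 0.895) did not pass either. WT4 was highest in both conditions for 5 of the 9 genes, against 18.1% of all tested genes. Without WT4 the calls of *NLRC5* (edgeR's adjusted p = 0.992) and *TAP1* (edgeR's adjusted p = 0.0761) ended. Without WT1 the calls of *TAP1* (edgeR's adjusted p = 0.0726) and *HLA-E* (edgeR's adjusted p = 0.289) ended, the latter also without WT3 (edgeR's adjusted p = 0.0797).

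WT4 also had the smallest difference between conditions of the 4 lines for 7 of the 9 genes, against 29.2% of all tested genes. For *HLA-B* the log2 difference was 0.45, 0.37, 0.34 and 0.19 in WT1 to WT4, and for *TAP1* 0.51, 0.32, 0.37 and 0.13. For *NLRC5* it was 0.57, 0.58, 0.59 and 0.47. With 1 library per line and condition, separate responses of all 4 lines could not be tested. Whether the response of WT4 differed from that of the other lines was not tested. Only the labels name the libraries of WT4 as such, since their files use a different clone name.

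The rest of the pathway did not move as one. Of 10 genes that load or trim peptides, none was called higher and 3 were called lower, against 11.1% and 14% of all genes, and 5 were lower with the block, against 22.4%. The median log2 fold change of the list was -0.14, against 0.033 over all tested genes. None was higher at an unadjusted p under 0.05 in edgeR, or by DESeq2 or voom, and 2 were with the GC correction (10.4% of all genes), *ERAP1* and *LNPEP*. Of all genes, 18.6% were higher at such a p, 13.3% by DESeq2 and 12.2% by voom. *CALR*, which encodes the chaperone calreticulin, was at 941 to 1088 CPM with serum and at 723 to 820.0 CPM without, and fell by 0.36 on the log2 scale (edgeR's adjusted p = 0.00595). *PDIA3*, the disulfide isomerase bound to tapasin, was at 254 to 305 and at 201 to 232 CPM, and fell by 0.38 (edgeR's adjusted p = 0.0066). *THOP1*, a cytosolic peptidase that destroys peptides, fell by 0.28 (edgeR's adjusted p = 0.0358), and by 0.53 with the GC correction (edgeR's adjusted p = 0.000804). The lectin chaperone *CANX* (-0.24) and the peptidase *TPP2* (-0.18) passed with the block (edgeR's adjusted p = 0.0016 and 0.0344) and not in the main test. *CANX* also passed in DESeq2 without the block (DESeq2's adjusted p = 0.0346), and both passed without the serum library of WT4 (edgeR's adjusted p = 0.00595 and 0.0292). *CANX* was at -0.12 with the GC correction alone (edgeR's adjusted p = 0.134) and at -0.12 with the block as well (edgeR's adjusted p = 0.0223). With the block and the GC correction *TPP2* was at -0.01 (edgeR's adjusted p = 0.862), and its blocked call also ended without WT1, WT2 or WT3 (edgeR's adjusted p from 0.119 to 0.207).

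The trimming peptidases *ERAP1* (0.14), *ERAP2* (0.31) and *LNPEP* (0.15), the tapasin-like *TAPBPL* (0.25) and the glucosyltransferase *UGGT1* (-0.10) passed neither fit on the log2 scale. Under the GC correction alone, *ERAP1* (0.28, edgeR's adjusted p = 0.0237) and *LNPEP* (0.34, edgeR's adjusted p = 0.00284) were called higher. With the block as well, *ERAP1* (0.28), *ERAP2* (0.44) and *LNPEP* (0.34) were called higher, 3 of the 10 (21.7% of all genes), and 4 were lower (24.5% of all). *TAPBP* rose while *CALR* and *PDIA3*, which work with it in the loading complex, fell.

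Of 5 immunoproteasome genes, 1 rose, and 2 with the block (median 0.17 on the log2 scale), against 11.1% and 23.2% of all genes. *PSMB10*, a catalytic subunit induced by interferon, was at 3.56 to 4.21 CPM with serum and at 5.01 to 6.95 CPM without, and rose by 0.73 on the log2 scale (edgeR's adjusted p = 0.00771). Under the GC correction alone the call ended (0.48, edgeR's adjusted p = 0.0546), and with the block as well it held (0.48, edgeR's adjusted p = 0.00905). *PSMB9* was at 6.33 to 9.86 and at 9.29 to 10.3 CPM, and passed with the block (0.37, edgeR's adjusted p = 0.0218) and, without it, when the serum library of WT4 was left out (0.50, edgeR's adjusted p = 0.0125). Its blocked call ended without WT1, WT2 or WT3 (edgeR's adjusted p from 0.0848 to 0.159). *PSMB8* (0.02), and *PSME1* (0.17) and *PSME2* (-0.08), which encode the proteasome activator PA28, did not pass in the main test or with the block. *PSME1* passed without WT4, by leaving out its serum library (0.23, edgeR's adjusted p = 0.0133) or, in the blocked fit, the line (0.24, edgeR's adjusted p = 0.000822), and *PSME2* was lower with the block and the GC correction (-0.15, edgeR's adjusted p = 0.0265). Their constitutive counterparts were much higher: *PSMB5*, at 132 to 149 CPM with serum, fell by 0.27 (edgeR's adjusted p = 0.0212), *PSMB7* differed by -0.15 and passed with the block (edgeR's adjusted p = 0.04), and *PSMB6* differed by -0.01. *PSMB7* also passed with the GC correction alone (-0.20, edgeR's adjusted p = 0.021), and its blocked call ended without WT1, WT2 or WT3 (edgeR's adjusted p from 0.0677 to 0.153).

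Reads of *PSMB10* per *PSMB7* read ran from 0.0126 to 0.0155 with serum and from 0.0191 to 0.0289 without, so the ranges did not overlap. The constitutive subunit was still in large excess in reads. This ratio was chosen after the values were seen. A share of 39.4% of the exon bases of *PSMB10* overlaps another annotated gene.

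Of 16 transcriptional regulators of class I genes, 1 rose and 3 fell, and with the block 4 rose and 3 fell (median -0.03 on the log2 scale). Over all genes 11.1% rose and 14% fell, and with the block 23.2% rose and 22.4% fell, so the blocked counts are near the share over all genes. *STAT2*, a subunit of the complex that answers type I interferon, was at 39.5 to 43.7 CPM with serum and at 68.8 to 83.3 CPM without. It rose by 0.88 on the log2 scale (edgeR's adjusted p = 0.000719), above each of the 9 class I genes in size. *IRF1*, which binds class I promoters, passed with the block (0.34, edgeR's adjusted p = 0.0168), but not with the GC correction as well (0.25, edgeR's adjusted p = 0.0589) or without WT2 or WT3 (edgeR's adjusted p = 0.171 and 0.126).

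*EZH2*, a histone methyltransferase that silences class I genes in some tumours, was at 87.8 to 98.6 and at 62.8 to 69.8 CPM, and fell by 0.48 (edgeR's adjusted p = 0.00174). *NFYA*, a subunit of the factor that binds the CCAAT box, fell by 0.46 (edgeR's adjusted p = 0.00475). *NFKB1*, which was named after its values were seen as the remaining call of this list, fell by 0.25 (edgeR's adjusted p = 0.0286), a call that ended with the GC correction (-0.04, edgeR's adjusted p = 0.814) and with the block as well (-0.04, edgeR's adjusted p = 0.578). Of 7 interferon receptor and kinase genes, none passed in the main test, where 25.1% of all genes did, and 3 rose with the block, where 23.2% of all genes did (median 0.19 on the log2 scale). Without the block, 2 had an unadjusted p under 0.05 in edgeR (38.4% of all genes), DESeq2 called 1 (30.1% of all), voom called 0 (26.6%) and the GC correction called 1 (27%), *JAK1* (0.19, edgeR's adjusted p = 0.0375), which was named after its values were seen.

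Of 13 class I-like genes, 9 had enough reads to be tested, 2 rose and 1 fell (median 0.04 on the log2 scale), against 11.1% and 14% of all genes. *MR1*, which presents vitamin B metabolites to MAIT cells, was at 2.01 to 2.92 CPM with serum and at 3.73 to 4.87 CPM without, and rose by 0.82 on the log2 scale (edgeR's adjusted p = 0.0105). *AZGP1*, a secreted class I-like protein, rose by 0.85 (edgeR's adjusted p = 0.0486), a call that ended with the GC correction (0.75, edgeR's adjusted p = 0.0900) and with voom (limma's adjusted p = 0.0826). *MICB*, a stress ligand of the receptor NKG2D, was at 15.5 to 18.5 and at 10.4 to 14.8 CPM, and fell by 0.40 (edgeR's adjusted p = 0.0367). Of 7 genes of quality control and turnover in the endoplasmic reticulum and at the membrane (median -0.20 on the log2 scale), 1 rose and 2 fell, against the same shares of all genes, and with the block 2 rose and 4 fell, against 23.2% and 22.4%. *MARCHF9*, a membrane ubiquitin ligase that can remove class I, rose by 0.54 (edgeR's adjusted p = 0.00402), and *DERL1* (-0.32, edgeR's adjusted p = 0.00515) and *TRAM1* (-0.35, edgeR's adjusted p = 0.0311) fell. With the GC correction *MARCHF9* was at 0.35 (edgeR's adjusted p = 0.00709), *DERL1* at -0.25 (edgeR's adjusted p = 0.00301) and *TRAM1* at -0.17 (edgeR's adjusted p = 0.0494).

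When single libraries were left out, 9 of the 15 genes named as called in these lists kept their call in all 8 fits. *THOP1*, *MICB*, *AZGP1* and *TRAM1* kept it in 2 fits each (edgeR's adjusted p up to 0.102, 0.0981, 0.125 and 0.0884), *PSMB5* in 3 (up to 0.0718) and *NFKB1* in 4 (up to 0.0898). Upper-quartile scaling ended the calls of *THOP1* (-0.22 on the log2 scale), *PSMB5* (-0.21), *MICB* (-0.33), *TRAM1* (-0.29) and *NFKB1* (-0.18), with edgeR's adjusted p from 0.0563 to 0.0943, and RLE scaling that of *AZGP1* (edgeR's adjusted p = 0.05005). In WT3 and WT4 alone, with the block, the calls of *PSMB5*, *NFYA* and *DERL1* ended (edgeR's adjusted p = 0.108, 0.0781 and 0.088), at -0.27, -0.31 and -0.30 on the log2 scale. The blocked calls of *CANX* (-0.25), *TPP2* (-0.11), *PSMB9* (0.24), *PSMB7* (-0.18) and *IRF1* (0.23) ended there too (edgeR's adjusted p from 0.123 to 0.596).

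**Figure D5:**
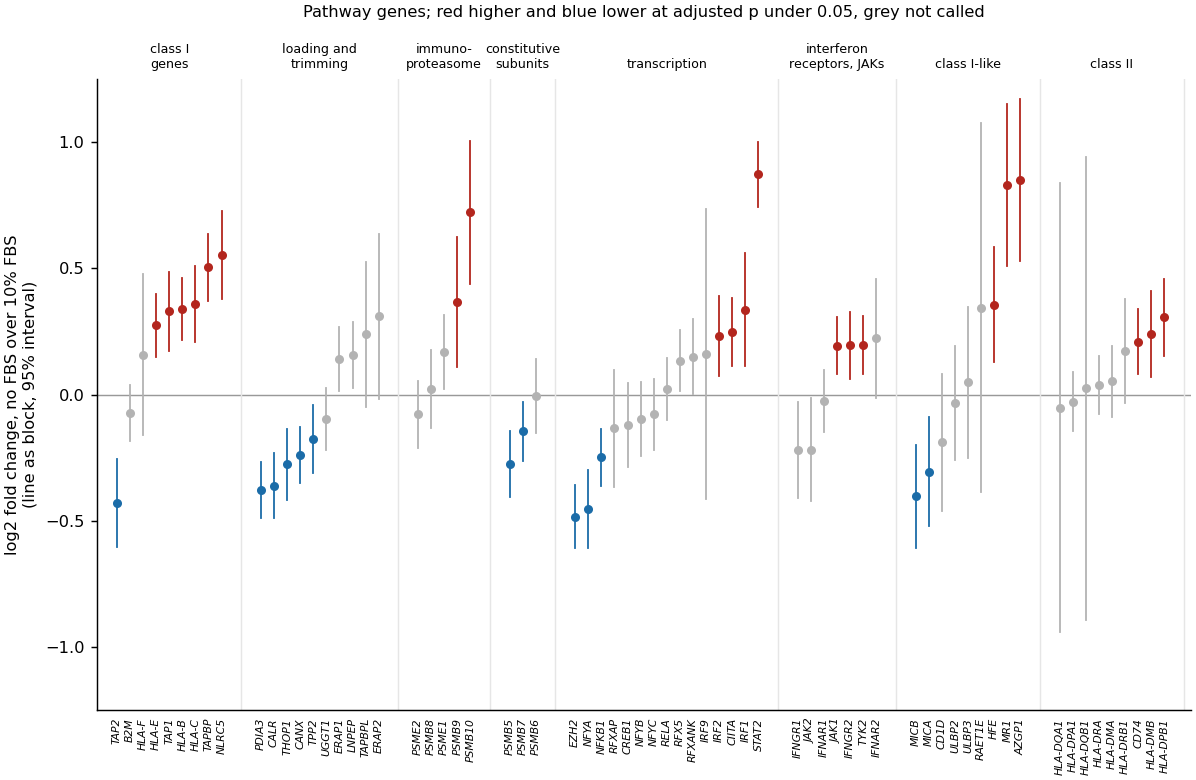
Log2 fold change, serum-free over serum, with the line as block, for the class I genes and the pathway lists; bars are 95% intervals, red marks genes called higher, blue genes called lower and grey genes not called at an adjusted p of 0.05. *STAT2* at 0.87 and *PSMB10* at 0.72 lie above the class I genes, and *CALR* and *PDIA3* lie below 0.

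The genes whose values ran most like the mean of the class I genes were found by Pearson's r with the mean standardized profile of the 9 genes over the 8 libraries, among genes with a mean of at least 1 CPM. *TAP2* (r = -0.68) and *B2M* (r = -0.42) themselves ran against this profile. They were *SIL1* (r = 0.98), *ZNF837* (0.98), *PLPPR2* (0.97), *EEIG1* (0.97) and *SERTAD3* (0.96). The 8 points share 4 lines and 2 conditions, and these 5 are the highest of many, so r is a description. None of them passed the test of serum (edgeR's adjusted p from 0.159 to 0.396), and 4 of them differed between lines.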

How the data were processed

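RNA of 8 A375 cultures, 1 for each of 4 lines and 2 conditions, was analysed from raw read counts per gene that the authors deposited, made with HTSeq on GRCh38. The submitters' processing notes also list cutadapt and TopHat2 2.0.11, and the study's methods describe an alignment to hg19 and FPKM values from Cufflinks, which the deposited counts are not. Neither an annotation release nor a strand setting is given in the sources used here. The 5 summary entries of HTSeq were left out of library sizes, and reads counted as ambiguous came to 8.23% to 11.5% of all. Symbols were matched for 55604 of 58051 genes.

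Tests used edgeR 4.0.16 under R 4.3.3: TMM scaling of genes kept by filterByExpr, a robust quasi-likelihood fit and its F-test, with no block. P-values were adjusted over all tested genes by the Benjamini-Hochberg method (threshold 0.05), and errors on fold changes are SE. Lines were compared by the F-test of the line terms beside condition. Line values on the log2 scale used a prior count of 2. RPKM used merged exon lengths of GENCODE gene models in GRCh37 coordinates, although the counts are on GRCh38, which also gave GC content and overlaps. The GC correction took away a lowess trend (span 0.3). The libraries are paired by line: deviations from the condition means correlated at 0.40 to 0.60 within a line, and at most 0.13 between lines. The alternatives were the block, DESeq2 1.42.0, limma 3.58.1 (voom), other scalings and filters, the GC correction and leaving out libraries or lines. No libraries agreed within sampling noise, and all were kept. Replicates are clones, so p-values of the fits without the block measure the spread between these 4 clones. Those of the blocked fit and of the line test measure the scatter left after line and condition, which is how unevenly these clones responded. The tests were run on simulated data too, where the fit without the block kept false calls under its threshold and the fit with the block, and to a lesser degree the line test and the GC correction, made more of them than the threshold allows. Far fewer genes were changed in these simulations than were called here. Those of the line test and the GC correction also left out the measured differences between lines. The shares of false calls therefore need not carry over to these data.

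The 9 genes and the 10 pathway and marker lists were chosen with earlier results of these data known. Named are all 9 genes, all loading, trimming and proteasome genes, the 3 smallest p among calls in other lists, *CIITA*, *IRF1* and the 5 most alike genes. Results of 2 listed genes are not reported here. The marker genes are named as a check of the labels, and the genes *CD74*, *HLA-DRA*, *HLA-DPB1* and *HLA-DMB*, *NFKB1* and *JAK1* were chosen after their values were seen.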

Additional observations from a re-analysis of the deposited data

Results flagged for a closer look

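Within a condition, 6 of 78 values searched (39 genes in 2 conditions) had a library far from the other 3 by Dixon's ratio, where chance gives about 3.9 (1 in 20). *NLRC5* gave 2 of them, both in WT4: 15.3 CPM with serum against 10.8 to 11.0 in the other lines, and 21.2 CPM without serum against 16.2 to 16.4. The others came from different lines. *UGGT1* was at 174 CPM in the serum-free library of WT2 against 188 to 190.1, *PSMB10* at 4.21 CPM in the serum library of WT1 against 3.56 to 3.63, *PSME1* at 54.1 CPM in the serum-free library of WT3 against 50.9 to 51.3, and *PSMB6* at 127.9 CPM in the serum library of WT4 against 98.4 to 100.3.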

How the results depend on the processing

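The main count of 4434 genes called, 3 of them class I genes, became 8067 and 7 with the replicate block, 8154 and 6 with the replicate block and the GC correction, and 7618 and 7 with the replicate block in DESeq2, which was added after the data were seen. Leaving out 1 library gave 2842 to 6128 genes called, the lowest without serum replicate 1, and 0 to 5 class I genes, with none called without serum replicate 1 or 3 or serum-free replicate 4. Leaving out 1 line in the blocked fit gave up to 8938, without WT4, and 7 class I genes in each fit. DESeq2, limma's voom, RLE and upper-quartile scaling, other filters and the GC correction alone left both counts within 1.5 times. Of the fold changes of named genes under all alternatives, 757 kept direction and call, 73 gained a call, 55 lost one and 12 turned sign, none of these called. *HLA-F* turned to -0.00042 with the GC correction, and *B2M* to 0.084 with it and 0.086 with the block as well. *PSMB8* turned to -0.089 and -0.087 under these, to -0.00027 without serum replicate 2 (up to 0.043 without the others) and to -0.012 without WT3 in the blocked fit. *PSMB6* turned to 0.051 with upper-quartile scaling, 0.0024 with at least 10 counts in every library, 0.0012 with voom, 0.085 without serum replicate 4 (down to -0.051 without the others) and 0.091 without WT4 in the blocked fit. With the GC correction, lines were called for *HLA-F* (edgeR's adjusted p = 0.0460) and *TAP2* (0.0399) and no longer for *NLRC5* (0.103), and without WT4 for *HLA-F* (0.0275). The causes were not tested. Depth limits *HLA-F* most, with 71 to 297 reads a library.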

Other observations

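The A375 lines also carried transcripts of MHC class II, which presents peptides from outside the cell and is usually kept to immune cells. *CD74*, the invariant chain, was at 1678 ± 379 CPM with serum and 1923 ± 319 without (SD, n = 4), *HLA-DRA* at 333 ± 54.1 and 342 ± 61.5 CPM, and *CIITA*, the class II transactivator and a relative of *NLRC5*, at 207 ± 42.5 and 244 ± 42.8 CPM. Of the 9 class II genes listed, none was called between conditions without the block by edgeR, DESeq2 or voom, and 0 had an unadjusted p under 0.05 in edgeR (25.1% of all genes were called), and 3 rose with it, *CD74* (0.21), *HLA-DPB1* (0.31) and *HLA-DMB* (0.24 on the log2 scale), where 23.2% of all genes did. With the GC correction as well, *CD74* was at 0.07 and lost its call (edgeR's adjusted p = 0.257). *CIITA* passed with the block too (0.25, edgeR's adjusted p = 0.00507), but not when WT1 or WT3 was left out (edgeR's adjusted p = 0.0701 and 0.0726) or in WT3 and WT4 alone (edgeR's adjusted p = 0.288). Between lines, 6 of the 9 class II genes differed (22.9% of all genes did), as did *CIITA* (edgeR's adjusted p = 0.000598).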
